A study of Mus musculus with 12 samples.

Results

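The cytosolic and mitochondrial heat shock chaperones described here are 10 genes, chosen by name as HSP90, HSP70, HSP40 and chaperonin genes whose products work outside the endoplasmic reticulum (ER). They are Hsp90aa1, Hsp90ab1, Chordc1, Hspa8, Hspa4l, Hsph1, Dnajb1, Dnaja1, Hspd1 and Hspe1, 10 of the 23352 gene entries in the deposited table. The rule uses gene names only, but the list was drawn up with earlier results of these data known. All 10 passed the expression filter. Poly-A selected RNA came from the hippocampus of C57BL/6J mice, in 4 groups of 3 libraries each. At 3 and at 12 months of age, mice transgenic for N40K, a shortened version of U1-70K (gene Snrnp70), a protein of the spliceosome, were set against wild-type mice without the transgene. The transgenic mice were of 1 line, Tg396, and expressed N40K in neurons from a modified CaMKIIa promoter. No treatment was given in the labels. The labels did not say whether each library was 1 mouse, so p-values measure the spread between these libraries.

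Heat shock chaperones bind unfolded or partly folded proteins and help them reach or regain their native shape. HSP40 proteins bring clients to HSP70, nucleotide exchange factors such as the HSP110 proteins release them, and HSP90 with its co-chaperones completes the folding of many kinases and receptors. In the mitochondrial matrix HSP60 and its lid HSP10 fold imported proteins inside a closed chamber. Heat shock factor 1 switches on many of these genes by binding heat shock elements, inverted repeats of the bases GAA, in their promoters. Neurons hold large amounts of the constitutive members even without stress.

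The values were FPKM, fragments per kilobase of transcript scaled to the mapped reads of a library. Being per length, they compare between genes only as far as transcript lengths and the placement of reads are right. Depth, recovered approximately from the steps between low FPKM values, lay between 39.84 and 97.12 M reads (M for mega). With the longest annotated coding transcript taken as length, each member had an estimated 1663 or more fragments in every library. The lengths behind the deposited values are not known, and shorter ones would give fewer fragments. Snrnp70 ran from 95.96 to 179 FPKM in the wild-type libraries and from 258.6 to 401 FPKM in the transgenic ones, without overlap at either age. Markers of pyramidal neurons summed to between 1083 and 1437 FPKM, and no marker of any listed cell type was at 0. Choroid plexus markers summed to between 29.95 and 5931 FPKM. Xist reached 13.5 to 17.3 FPKM in 3 of the 3-month libraries (wild-type replicate 2, wild-type replicate 3 and transgenic replicate 3) and at most 0.112 FPKM elsewhere. Ddx3y, a gene of the Y chromosome, was at 0.0166 to 0.0647 FPKM in these 3 and at 13.9 to 17.6 FPKM elsewhere. By these genes all 12-month libraries were male and both 3-month groups were of mixed sex, in unequal shares. Age and sex therefore cannot be fully told apart. The library names of the ages came from separate number blocks, so age and library set cannot be told apart. In bulk tissue, fewer cells of a type and less RNA per cell cannot be told apart either.

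Promoter windows from RefSeq (build GRCm38.p6, 250 bases before to 50 after each start) were matched for 7 of the 10 members, Hspd1, Hspe1, Hsph1, Hspa4l, Dnajb1, Dnaja1 and Chordc1. The 3-unit heat shock element (GAA, any 2 bases, TTC, any 2 bases, GAA), searched on both strands, was present in 4 of these 7 genes. Of all 27025 genes with a window, 0.662% held it. The stretches around these elements are shown because they set 4 members apart from most promoters, with the bases of the elements in capitals and each gene read along its own strand.
Chordc1, chr9:18292260-18292289, plus strand: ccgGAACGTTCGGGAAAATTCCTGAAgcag
Hsph1, chr5:149636287-149636316, minus strand: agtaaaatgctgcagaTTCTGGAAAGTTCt
Hspe1, chr1:55088053-55088082, plus strand: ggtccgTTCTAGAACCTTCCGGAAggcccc
Hspd1, chr1:55088053-55088082, minus strand: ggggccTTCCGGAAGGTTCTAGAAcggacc
In Chordc1, 3 overlapping matches formed a run of 5 alternating units over 23 bases, from -4 to 18 counted from the first transcribed base as 0. In Hsph1 a single match of 3 units lay at 36 to 48 from 1 listed start and at 15 to 27 from another, inside the transcribed part. From the starts used here, Hspd1 and Hspe1 are transcribed away from each other. The same 18 bases with 4 units lay at -144 to -127 from Hspd1 and at -89 to -72 from Hspe1. Hspd1 has a further listed start at 55088243, past that of Hspe1 at 55088148, and the element lies downstream of it. The shorter motif GAANNTTC, which lies within the 3-unit element, occurred in 9.04% of genes with a window and in 5 of the 7 members, the fifth being Dnaja1. A match describes letters in the reference, not binding of a factor.

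At 12 months the members were lower in transgenic than in wild-type hippocampus. All 10 log2 differences were negative, 6 members fell past the threshold and 0 rose, where 7.71% of the 13945 genes tested fell and 11.2% rose (18.9% in all). The 6 were Chordc1, Hspa8, Hsp90aa1, Hsph1, Dnajb1 and Hspa4l. Their groups did not overlap in 9 of 10 members, the exception being Hspe1, where 17.5% of all genes tested were lower and 21.3% higher without overlap. The median log2 difference was -0.22 over the members and 0.0066 over all genes tested. At 3 months 2 members fell, Chordc1 and Hspa4l, and 1 rose, Dnajb1, where 3.49% of genes tested fell and 7.95% rose (11.4% in all). Without overlap 3 members were lower and 2 higher, where 11.5% and 20.4% of genes tested were. Of all calls at 3 months 69.5% were rises, against 52.7% under median-ratio scaling and 54.4% under quantile normalization, and the member split of 1 rise and 2 falls was the same under both. The 3-month median was -0.046 over the members and 0.020 over all genes tested. Calls are adjusted p-values under 0.05 from limma, with differences on the log2(FPKM + 1) scale.

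**Figure D1:**
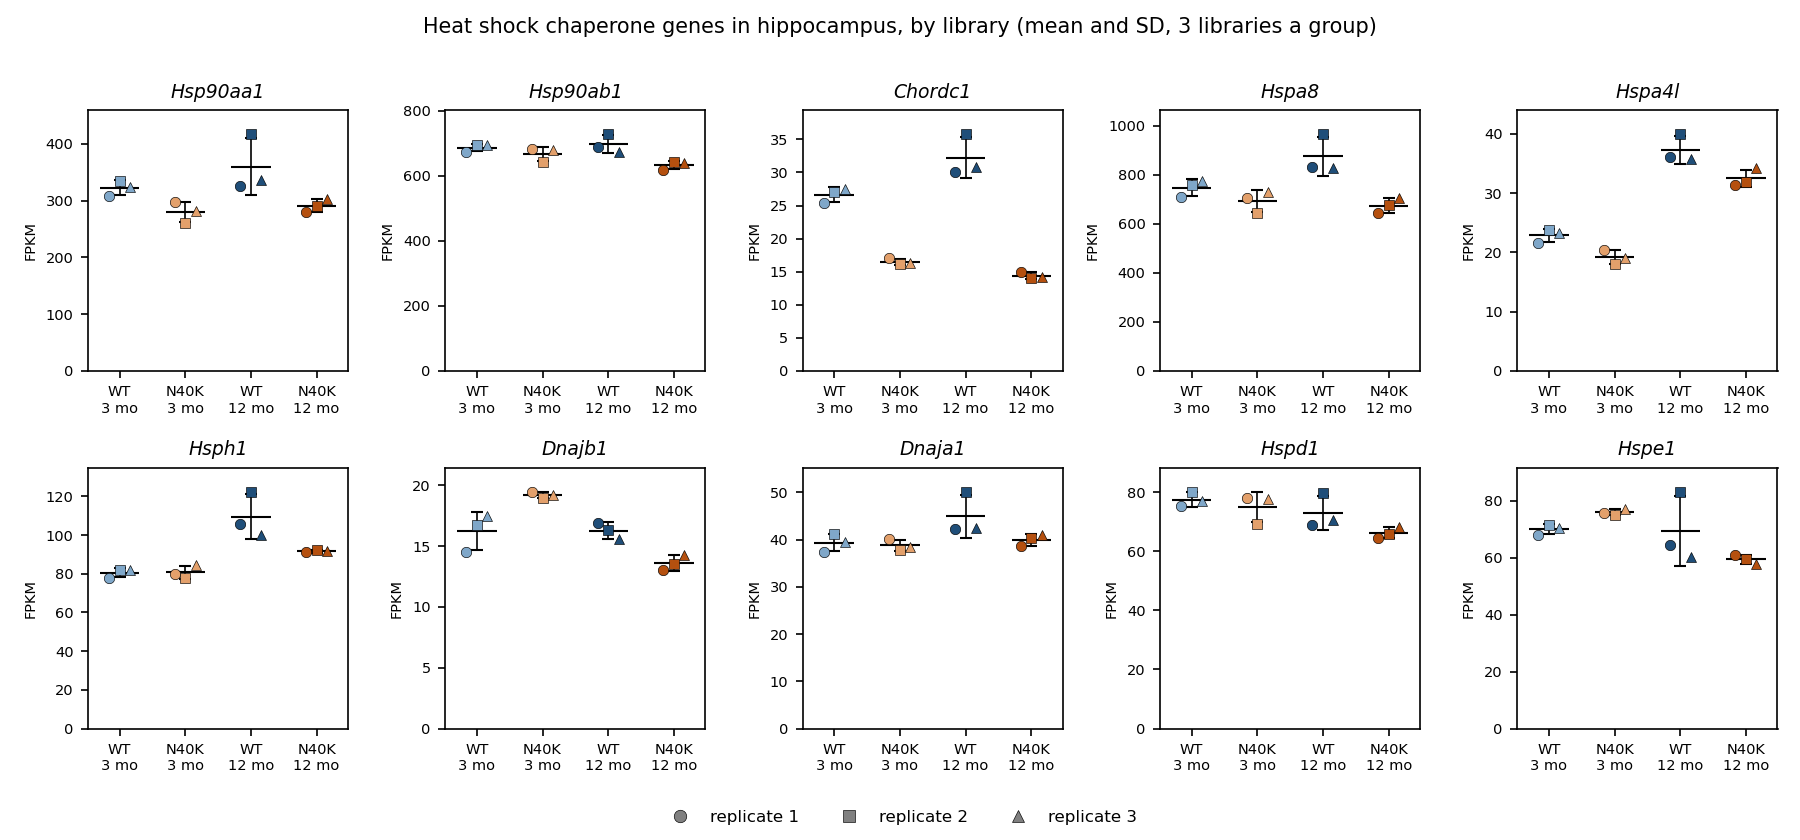
FPKM of each of the 10 members (vertical axes, from 0) in every library, by group on the horizontal axes. Points are single libraries with a shape per replicate number, long bars are group means and whiskers are SD, with WT for wild type and N40K for transgenic. Chordc1 shows separate genotypes at both ages, and the upper point of the 12-month wild-type group is replicate 2 in most panels.

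One library took the top place in most members. Replicate 2 of the 12-month wild-type group was the highest of its group in 9 of 10 members, where 40.9% of all genes tested were highest there, and the highest of all 12 libraries in 8. Its FPKM sum was also the highest of its age, 332941 against 309358 to 321116 in the other 12-month libraries. Without it, 3 members fell at 12 months instead of 6 (Chordc1, Hspa8 and Hsph1), with a median of -0.15. The count was 2 without replicate 1 or without replicate 2 of the 12-month transgenic group, and 8 without replicate 3 of the 12-month wild-type group. When the 12-month groups were fitted alone, 3 members were called. Over all genes tested, calls at 12 months also fell below the 2632 of the main fit in each of these fits. The range of those counts over the fits that left out 1 library is given in the last part of the report. The count with the 12-month groups alone is given there too. Whether the member counts changed more than the counts over all genes was not tested. Chordc1 and Hspa8 were called at 12 months in all 25 alternatives run. The part of the differences in Xist or choroid plexus reads was not tested beyond the fits with Xist or Ttr as a covariate, which called 5 and 4 members at 12 months.

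Chordc1 encodes CHORD-containing protein 1 (morgana), a zinc-binding co-chaperone that attaches to HSP90, and it showed the largest difference among the members at both ages. It measured 25.4, 27.0 and 27.6 FPKM in wild-type and 17.0, 16.1 and 16.3 FPKM in transgenic libraries at 3 months. At 12 months it measured 30.1, 35.8 and 30.8 FPKM in wild-type and 15.01, 14.0 and 14.2 FPKM in transgenic libraries. Every transgenic library lay below every wild-type library, whatever the ages. The log2 difference was -0.66 ± 0.06 (SE, 95% interval -0.80 to -0.53) at 3 months, with an adjusted p of 9.41e-05, and -1.11 ± 0.06 (-1.24 to -0.97) at 12 months, with an adjusted p of 5.31e-06. Transgenic means were 0.618 of the wild-type mean at 3 months and 0.446 of it at 12 months. Over all 25 alternatives the difference stayed between -0.70 and -0.63 at 3 months and between -1.16 and -1.03 at 12 months, and each was called. Its transcript shared 0% of its 100-base stretches with other genes of the GENCODE M21 annotation.

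Hsp90aa1 encodes the inducible form of cytosolic HSP90. It measured 308, 335 and 325 FPKM in wild-type and 297, 261 and 281 FPKM in transgenic libraries at 3 months, and 326, 417 and 336 FPKM against 281, 289.7 and 303 FPKM at 12 months. Transgenic libraries lay below wild-type ones at both ages, with the 417 FPKM of replicate 2 well above the rest. The difference was -0.20 ± 0.09 (SE) at 3 months (adjusted p = 0.156) and -0.30 ± 0.09 at 12 months (adjusted p = 0.0328). The 12-month call was lost without wild-type replicate 2 (-0.19) or any one of the 3 transgenic libraries of that age, and also with no filter, under quantile normalization, with Ttr as a covariate and with only the 2 groups compared. These were 8 of the 25 alternatives, with adjusted p-values up to 0.111. The 3-month difference was called without wild-type replicate 2 of 12 months (adjusted p = 0.0255).

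Hsp90ab1 encodes the constitutive form of HSP90 and was among the most abundant members. It measured 674, 694.1 and 694.3 FPKM in wild-type and 681, 644 and 679 FPKM in transgenic libraries at 3 months, and 690.5, 729 and 675 FPKM against 619, 641 and 639 FPKM at 12 months. The genotypes overlapped at 3 months and did not at 12 months. The 12-month difference of -0.14 ± 0.05 (SE) missed the threshold, with an adjusted p of 0.0553. It was called in 5 of the 25 alternatives, those without wild-type replicate 3 (-0.16, adjusted p = 0.0443), under median-ratio scaling, with robust eBayes and with the length or the GC trend removed. Over all 25 alternatives the limma difference ranged from -0.16 to -0.010, with adjusted p-values up to 0.891. Its transcript shared 0% of its 100-base stretches with other genes, while Hsp90aa1 shared 47.5%, all with 3 pseudogenes, so reads of Hsp90aa1 are less surely placed.

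Relative to Hsp90ab1, Chordc1 stood at 0.0377 to 0.0397 in 3-month wild-type and 0.0436 to 0.0491 in 12-month wild-type libraries, and at 0.0240 to 0.0250 and 0.0218 to 0.0243 in the transgenic libraries of those ages. The FPKM of the co-chaperone was thus lower per FPKM of its HSP90 partner in every transgenic library. The ratio of Hsp90aa1 to Hsp90ab1 was 0.457 to 0.482 in wild-type and 0.406 to 0.436 in transgenic libraries at 3 months, without overlap, and 0.472 to 0.572 against 0.452 to 0.474 at 12 months, with overlap. These ratios were not tested.

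Hspa8 encodes the constitutive HSP70 (HSC70), which also uncoats clathrin vesicles at synapses. It measured 707, 758 and 774 FPKM in wild-type and 705, 642 and 728 FPKM in transgenic libraries at 3 months, with overlap. At 12 months it measured 831, 966 and 826 FPKM in wild-type and 642, 676 and 703 FPKM in transgenic libraries, without overlap. The difference was -0.11 ± 0.07 (SE) at 3 months (adjusted p = 0.387) and -0.37 ± 0.07 at 12 months (adjusted p = 0.00617). Its 12-month value was 0.771 of the wild-type mean and stayed between -0.41 and -0.20 over the alternatives. Hspa8 shared 63.4% of its 100-base stretches with 9 other annotated genes, 8 of them pseudogenes, so its reads could be split between copies.

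The HSP110 group exchanges the nucleotide of HSP70. Hsph1, the gene of HSP105, measured 77.9, 81.8 and 82.2 FPKM in wild-type and 79.9, 77.7 and 84.5 FPKM in transgenic libraries at 3 months. At 12 months it measured 106, 122 and 100.1 FPKM in wild-type against 91.0, 92.5 and 91.6 FPKM in transgenic libraries. The groups overlapped at 3 months, with a difference of 0.00090 ± 0.064 (SE, adjusted p = 0.996, 95% interval -0.14 to 0.14), and not at 12 months, where it was -0.25 ± 0.06 (adjusted p = 0.0218). The sign of the 3-month value turned under median-ratio scaling (-0.034). The 12-month call was lost without any one of the 3 transgenic libraries of that age, with adjusted p-values up to 0.0719, and with only the 2 groups compared (adjusted p = 0.0744).

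Hspa4l, the gene of the HSP110-like protein APG-1, was lower in transgenic libraries at both ages. It measured 21.6, 23.7 and 23.2 FPKM in wild-type and 20.4, 18.1 and 19.1 FPKM in transgenic libraries at 3 months, and 36.0, 39.95 and 35.8 FPKM against 31.4, 31.8 and 34.2 FPKM at 12 months. The genotypes did not overlap at either age. The difference was -0.24 ± 0.06 (SE) at 3 months (adjusted p = 0.0249) and -0.19 ± 0.06 at 12 months (adjusted p = 0.0432). The 3-month call was lost without wild-type replicate 2 or 3 or transgenic replicate 2 or 3, with adjusted p-values up to 0.0963, and with Xist as a covariate (adjusted p = 0.0562). The 12-month call was lost in 13 of the 25 alternatives. These were 7 of the 12 fits that left out 1 library, with adjusted p-values up to 0.145: those without wild-type replicate 1 or 2 or transgenic replicate 1 or 2 of 12 months, wild-type replicate 2 or 3 of 3 months, or transgenic replicate 3 of 3 months. The others were no filter, quantile normalization, Xist or Ttr as a covariate, the replicate block and only the 2 groups compared (adjusted p from 0.0544 to 0.0805).

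Dnajb1, the gene of the main inducible HSP40, differed in opposite directions at the 2 ages. It measured 14.5, 16.7 and 17.5 FPKM in wild-type and 19.5, 19.0 and 19.2 FPKM in transgenic libraries at 3 months. At 12 months it measured 16.9, 16.4 and 15.6 FPKM in wild-type and 13.01, 13.5 and 14.3 FPKM in transgenic libraries. Transgenic libraries were all above wild-type ones at 3 months and all below them at 12 months. The difference was 0.24 ± 0.06 (SE) at 3 months (adjusted p = 0.0342) and -0.24 ± 0.06 at 12 months (adjusted p = 0.0213). The difference between these effects was -0.48 ± 0.09 (95% interval -0.67 to -0.28), with an adjusted p of 0.0919. The 3-month call was lost without any one of the 3 transgenic libraries, without wild-type replicate 1 (0.16) or 2, and without transgenic replicate 2 of 12 months, with adjusted p-values up to 0.0939. It was also lost with the replicate number as a block (adjusted p = 0.0515), with only the 2 groups compared (adjusted p = 0.074) and with the GC trend removed (adjusted p = 0.0511). The 12-month call was lost without replicate 1 or 2 of either genotype, with adjusted p-values up to 0.0846.

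Dnaja1, the gene of a farnesylated HSP40 that works with HSC70, measured 37.4, 41.1 and 39.5 FPKM in wild-type and 40.1, 37.8 and 38.4 FPKM in transgenic libraries at 3 months, and 42.2, 50.1 and 42.4 FPKM against 38.6, 40.3 and 41.0 FPKM at 12 months. The groups overlapped at 3 months only. Neither difference was called, with -0.019 ± 0.064 (SE) and an adjusted p of 0.892 at 3 months and -0.16 ± 0.06 and an adjusted p of 0.0987 at 12 months. The ratio of Dnajb1 to Dnaja1 was 0.388 to 0.443 in wild-type and 0.486 to 0.502 in transgenic libraries at 3 months, and 0.326 to 0.401 against 0.335 to 0.349 at 12 months. The ratios of the 2 HSP40 genes did not overlap between the genotypes at 3 months and overlapped at 12 months, and they were not tested. Dnaja1 shared 24.0% of its 100-base stretches with 4 other genes, 3 of them pseudogenes.

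The mitochondrial pair showed no genotype call. Hspd1, the gene of HSP60, measured 75.3, 80.2 and 76.9 FPKM in wild-type and 77.9, 69.0 and 77.7 FPKM in transgenic libraries at 3 months, and 68.8, 79.5 and 70.6 FPKM against 64.6, 65.8 and 68.2 FPKM at 12 months. Hspe1, the gene of HSP10, measured 68.0, 71.4 and 70.6 FPKM against 75.8, 74.95 and 77.1 FPKM at 3 months, and 64.3, 83.2 and 60.2 FPKM against 60.9, 59.4 and 57.8 FPKM at 12 months. The transgenic group was above the wild type for Hspe1 at 3 months, without overlap, while Hspd1 overlapped there.

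The 12-month difference was -0.14 ± 0.06 (SE) for Hspd1, with an adjusted p of 0.145, and -0.21 ± 0.09 for Hspe1, with an adjusted p of 0.132. Hspe1 was called at -0.30 without wild-type replicate 3 of that age (adjusted p = 0.035) and was -0.067 without wild-type replicate 2, where Hspd1 was -0.073. At 3 months the differences were -0.05 ± 0.06 for Hspd1 (adjusted p = 0.679) and 0.12 ± 0.09 for Hspe1 (adjusted p = 0.477). The 2 genes share the stretch printed above. The untested ratio of Hspd1 to Hspe1 was 1.09 to 1.12 in wild-type and 0.921 to 1.03 in transgenic libraries at 3 months. This ratio overlapped at 12 months. Shares of 26.9% and 22.4% of the 100-base stretches of Hspd1 and Hspe1 occurred in other genes.

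**Figure D2:**
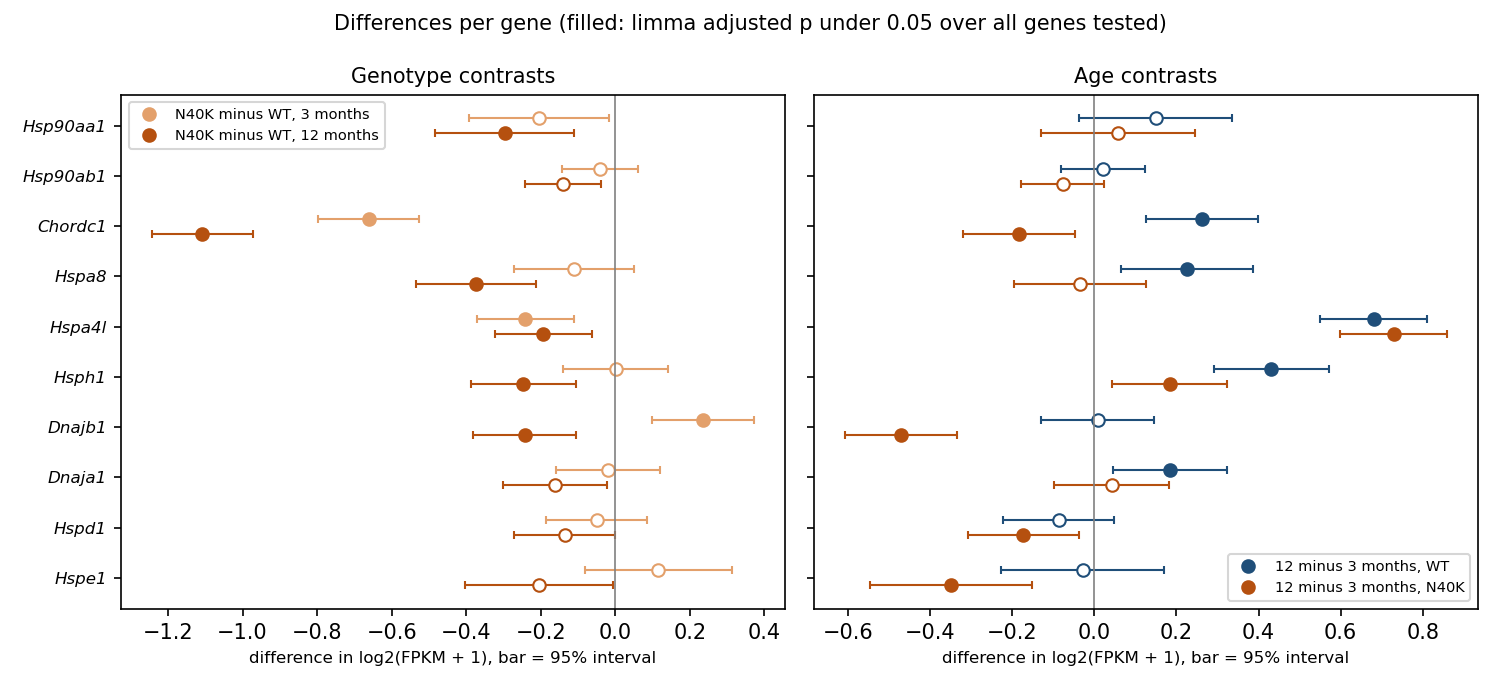
Log2 differences on the log2(FPKM + 1) scale (horizontal axis) of the 10 members (vertical axis) with 95% intervals, for genotype at each age (left) and for age in each genotype (right), with filled points for adjusted p under 0.05. Chordc1 lies lowest in both genotype comparisons, at -0.66 and -1.11, and all 10 members lie below 0 for genotype at 12 months.

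The test of whether the genotype effect differed between the ages called 0 of 10 members, where 0.0645% of genes tested were called (9 genes, 0.0359% higher and 0.0287% lower). In limma, 5 of 10 members had an unadjusted p under 0.05, against 14.3% of all genes tested, and the smallest adjusted p was that of Dnajb1. The difference of effects was negative in 9 members, with Hspa4l the exception. For Chordc1 it was -0.45 ± 0.09 (SE, adjusted p = 0.112), called at -0.48 when the GC trend of each library was removed, a setting added after seeing the data. Members called at 12 months and not at 3 months are therefore not shown to differ between the ages.

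In wild-type mice several of the chaperones, most of them of the HSP70 system, were higher at 12 than at 3 months. With age 5 members rose and 0 fell, where 12.6% of genes tested rose and 29% fell (41.6% in all), and the 5 were Hspa4l, Hsph1, Chordc1, Hspa8 and Dnaja1. The 5 rose without overlap of the ages, where 15.7% of all genes tested did so and 34.5% were lower without overlap. The member median was 0.17 against -0.077 over all genes. Hspa4l rose by 0.68 ± 0.06 (log2, SE), to 1.63 of its 3-month mean, with an adjusted p of 1.8e-05. Hsph1 rose by 0.43 ± 0.06 (adjusted p = 4.52e-04), Chordc1 by 0.26 ± 0.06 (adjusted p = 0.00616), Hspa8 by 0.23 ± 0.07 (adjusted p = 0.029) and Dnaja1 by 0.18 ± 0.06 (adjusted p = 0.0371).

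Hspa4l, Hsph1 and Chordc1 were called with age in wild type in all 25 alternatives. The Hspa8 call was lost without replicate 1 or 2 of 3 months or replicate 2 of 12 months, with adjusted p-values up to 0.104, and with no filter or only the 2 groups compared. The Dnaja1 call was lost without replicate 1 or 3 of 3 months, replicate 2 of 12 months or transgenic replicate 2 of 12 months, with adjusted p-values up to 0.126. It was also lost with no filter, Xist or Ttr as a covariate, only the 2 groups compared and the length trend removed, 9 of the 25 alternatives in all. Without replicate 2 of the 12-month wild-type group 3 members rose and 2 fell, the falls being Hspd1 (-0.15) and Hspe1 (-0.17), and the median was 0.071.

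In transgenic mice 2 members were higher and 4 lower at 12 than at 3 months, where 15.1% of genes tested rose and 36.5% fell (51.6% in all), so these shares lay near the background. The test of whether the age effect differs by genotype is the one above, which called 0 members. Without overlap 2 members were higher and 5 lower, where 19.1% and 43.7% of genes tested were. Hspa4l rose by 0.73 ± 0.06 (log2, SE; adjusted p = 5.9e-06) and Hsph1 by 0.18 ± 0.06 (adjusted p = 0.0321). Dnajb1 fell by 0.47 ± 0.06 (adjusted p = 1.33e-04) and Hspe1 by 0.35 ± 0.09 (adjusted p = 0.00725). Chordc1 fell by 0.18 ± 0.06 (adjusted p = 0.0275) and Hspd1 by 0.17 ± 0.06 (adjusted p = 0.0349). Hspa4l and Dnajb1 were called in all 25 alternatives.

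Of the other transgenic age calls, that of Hspe1 held with every library left out (-0.37 to -0.33) and was lost with the length trend removed (-0.091, adjusted p = 0.363). The calls of Chordc1 (without transgenic replicate 1 or 3 of 3 months or 2 or 3 of 12 months, adjusted p up to 0.0871), Hspd1 (without 1 or 3 of 3 months or 1 or 2 of 12 months, up to 0.113) and Hsph1 (without 1 or 2 of 3 months or any one of 12 months, up to 0.105) were lost. Those of Chordc1 and Hspd1 were also lost under median-ratio scaling, under quantile normalization and with Xist as a covariate, and that of Hspd1 with no filter and with the replicate block. Under other scalings the counts changed, in that 6 members rose and 2 fell under quantile normalization, and 2 rose and 2 fell under median-ratio scaling. Over all genes, 30.3% of the age calls in wild type were rises and 29.3% in transgenic mice, against 51.7% and 49.8% under median-ratio scaling and 49.4% and 46.4% under quantile normalization. The comparisons of age and of genotype share groups, so their values are given side by side and not as separate evidence.

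As a level over the whole list, the members' FPKM summed to between 0.532% and 0.763% of a library's FPKM. The sums were 2009 to 2131 in 3-month wild-type, 1860 to 2020 in 3-month transgenic, 2192 to 2540 in 12-month wild-type and 1856 to 1966 FPKM in 12-month transgenic libraries. In 5 members all 3 libraries of the 12-month wild-type group lay above the other 9 libraries, as they did in 2.61% of all genes tested. By mean FPKM over the 12 libraries the order was Hspa8, Hsp90ab1, Hsp90aa1, Hsph1, Hspd1, Hspe1, Dnaja1, Hspa4l, Chordc1 and Dnajb1. Hspa8 lay above Hsp90ab1 by ratios of 1.05 to 1.32 in wild-type libraries and 0.997 to 1.101 in transgenic ones, so these neighbours changed places in transgenic replicate 2 of 3 months.

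Genes that work beside the members were given by lists of the chaperone network. Of 17 tested HSP90 co-chaperones, 3 fell and 2 rose at 12 months, where 7.71% and 11.2% of all genes tested did, with a median of -0.12. Ahsa1, which encodes the activator of the HSP90 ATPase, measured 103 ± 10.9 FPKM in wild-type and 79.4 ± 1.995 FPKM (SD, n = 3) in transgenic libraries at 12 months, a difference of -0.36 ± 0.06 (SE, adjusted p = 0.00304). The immunophilin gene Fkbp4 differed by -0.32 ± 0.06 (adjusted p = 0.00637). Stip1, the gene of HOP, which links HSP70 to HSP90, differed by -0.29 ± 0.08 (adjusted p = 0.0237). Ttc4 (0.17, adjusted p = 0.0484) and Cdc37l1 (0.14, adjusted p = 0.0431) rose. Without wild-type replicate 2 of that age, 2 co-chaperones fell and 0 rose, with a median of -0.056. The calls of Ahsa1 and Fkbp4 held with every library left out, that of Stip1 was lost without wild-type replicate 2 or transgenic replicate 1 or 2 of 12 months, and those of Ttc4 and Cdc37l1 held in 2 and 3 of the 12 such fits.

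Of the 8 other HSP70 and HSP110 genes, 2 fell at 12 months and 0 rose, where 7.71% of all genes tested fell and 11.2% rose. The 2 that fell were the near-identical copies Hspa1a and Hspa1b, the inducible HSP70 genes, between which the split of reads is uncertain. Hspa1b measured 8.001, 8.22 and 5.46 FPKM in wild-type and 3.78, 4.06 and 5.29 FPKM in transgenic libraries at 12 months, a difference of -0.60 ± 0.13 (SE, adjusted p = 0.00993). Hspa1a differed by -0.42 ± 0.10 (adjusted p = 0.0137). At 3 months Hspa1b was at 0.35 ± 0.13 (adjusted p = 0.123) and Hspa2 rose by 0.16 ± 0.04 (adjusted p = 0.0318). With replicate 2 of the 12-month wild-type group left out, 1 of the 8 fell, Hspa1b. The Hspa1a call was lost there and without transgenic replicate 1 or 2 of 12 months, and Hspa2 at 3 months was called in 7 of the 12 fits that left out a library.

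Of 11 other cytosolic J-domain genes, 3 fell at 12 months and 1 rose, where 7.71% of all genes tested fell and 11.2% rose. Dnajb5, of the same subfamily as Dnajb1, rose at both ages. Its level was 44.3 ± 2.68 in wild-type and 65.1 ± 4.55 FPKM (SD, n = 3) in transgenic libraries at 3 months, and 42.6 ± 1.77 against 53.0 ± 2.86 FPKM at 12 months. It rose by 0.54 ± 0.06 (SE, adjusted p = 4.03e-04) and 0.31 ± 0.06 (adjusted p = 0.00721). Dnajb6 differed by -0.25 ± 0.06 (adjusted p = 0.0199), Dnajb2 by -0.19 ± 0.05 (adjusted p = 0.0225) and Dnajc7 by -0.16 ± 0.04 (adjusted p = 0.011) at 12 months. Dnajc7 also fell at 3 months, by 0.13 ± 0.04 (adjusted p = 0.0464), a call that held in 2 of the 12 fits that left out a library. The Dnajb6 call was lost without wild-type replicate 2 or transgenic replicate 1 or 2 of 12 months, and the Dnajb2 call without wild-type replicate 1 or any one transgenic library of that age. Without wild-type replicate 2 of 12 months, 2 of the 11 fell and 1 rose, with a median of -0.016 against -0.074 over all libraries. Among 8 BAG and other adaptor genes of HSP70, 0 were called at 12 months in limma (2 lower at an unadjusted p under 0.05), and Bag2 rose at 3 months by 0.23 ± 0.05 (adjusted p = 0.0115).

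All 13 tested genes of the CCT chaperonin, which folds actin and tubulin, and of prefoldin had negative values at 12 months. The median was -0.11, and 2 fell, where 7.71% of all genes tested fell. The median was -0.039 without wild-type replicate 2 of that age, where the same genes were called. They were Cct4 (-0.30 ± 0.06, SE, adjusted p = 0.00707) and Cct3 (-0.24 ± 0.05, adjusted p = 0.00985). Of 12 other mitochondrial chaperone and protease genes 3 fell at 12 months, where 7.71% of all genes tested fell. The 3 were Dnajc19 (-0.34 ± 0.05, adjusted p = 0.00214), Clpb (-0.15 ± 0.04, adjusted p = 0.0258) and Clpx (-0.17 ± 0.05, adjusted p = 0.0277). Without wild-type replicate 2 of 12 months 1 of the 12 fell, Dnajc19, and the calls of Clpb and Clpx were also lost without transgenic replicate 1 or 2 of that age. None of the 4 tested small heat shock protein genes was called at 12 months in limma (1 lower at an unadjusted p under 0.05), with Cryab at -0.36 ± 0.12 (adjusted p = 0.0583) and Hspb1 at -0.45 ± 0.21 (adjusted p = 0.161).

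Among the heat shock factors, Hsf4 rose at both ages, by 0.42 ± 0.10 (log2, SE; adjusted p = 0.0211) at 3 months and by 0.53 ± 0.10 (adjusted p = 0.00499) at 12 months, from 6.81 ± 0.38 to 9.45 ± 0.62 and from 6.13 ± 1.12 to 9.18 ± 0.53 FPKM (SD, n = 3). Hsf1, the main factor of the heat shock response, was not called, with 0.013 ± 0.083 (adjusted p = 0.947) at 3 months and -0.049 ± 0.083 (adjusted p = 0.716) at 12 months. It measured between 15.9 and 23.5 FPKM over the 12 libraries, and without wild-type replicate 2 of 12 months (15.9 FPKM) it was called lower at 12 months, at -0.17 (adjusted p = 0.0287). The 3-month call of Hsf4 held in 8 of the 12 fits that left out a library, and its 12-month call in all 12. These are transcript levels, which do not measure the activity of a factor.

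**Figure D3:**
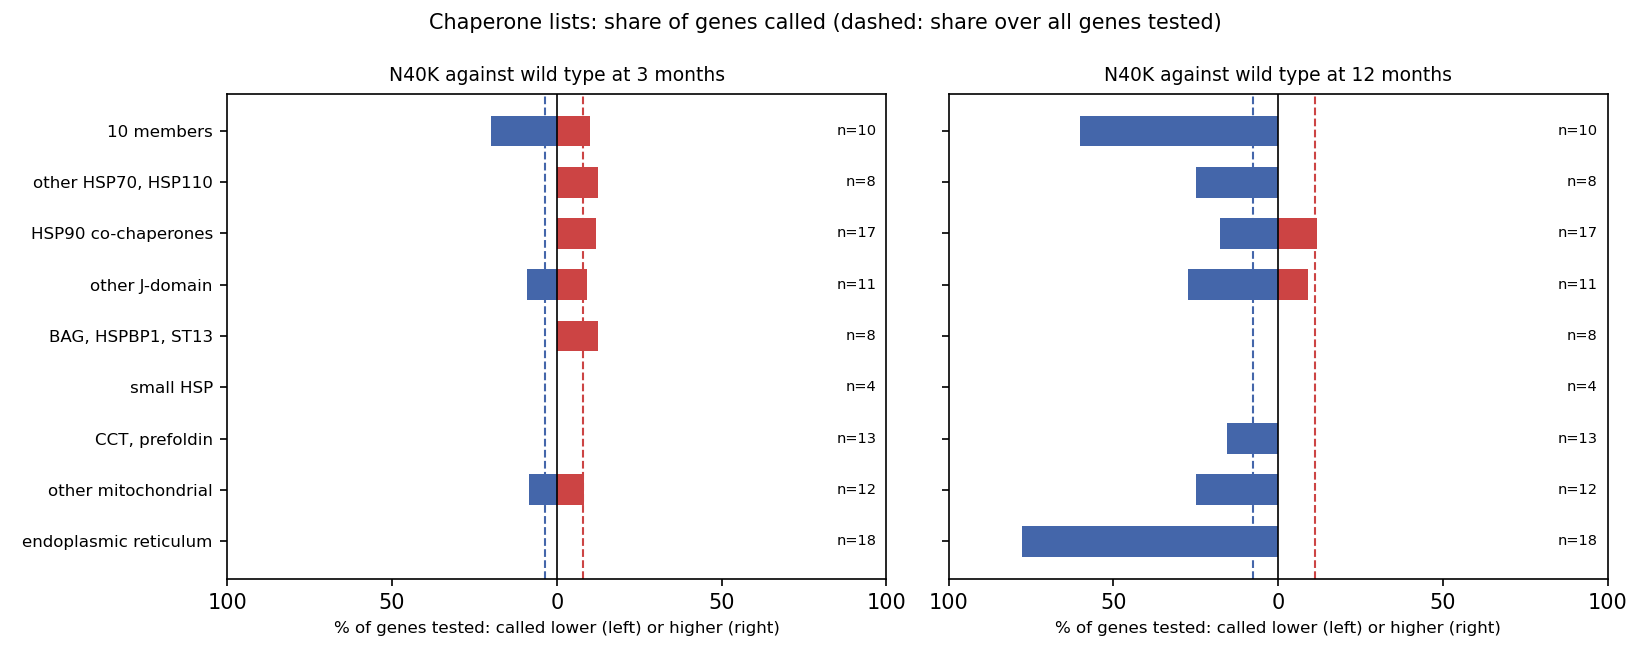
Percent of the tested genes (n) of each chaperone list (vertical axis) called lower (blue, to the left) or higher (red, to the right) in transgenic libraries with adjusted p under 0.05, at 3 and at 12 months. Dashed lines are the shares over all genes tested. At 12 months the members fell in 6 of 10 cases and the genes of the ER list in 14 of 18.

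The ER chaperones, which fold secreted and membrane proteins, are the nearest group outside the members. Their list also holds Xbp1, Herpud1 and Sel1l, which are not chaperones. Of the 18 listed genes tested, 14 fell at 12 months and 0 rose, where 7.71% of genes tested fell. Their median was -0.40, and 0 were called at 3 months in limma (0 at an unadjusted p under 0.05). In wild-type mice 15 of 18 rose with age, where 12.6% of genes tested did. Hspa5, the gene of the ER HSP70 (BiP), measured 146, 156 and 121 FPKM in wild-type and 69.5, 77.9 and 86.6 FPKM in transgenic libraries at 12 months, a difference of -0.84 ± 0.13 (SE, adjusted p = 0.00137). Its cytosolic relative Hspa8 differed by -0.37 ± 0.07. Sdf2l1 at -1.11 ± 0.13 (adjusted p = 3.02e-04) and Manf at -0.73 ± 0.11 (adjusted p = 0.00132) lay near or below Hspa5. Without replicate 2 of the 12-month wild-type group, 12 genes of the ER list fell at 12 months. The summed FPKM of the 18 genes was 1058 to 1261 in 12-month wild-type and 742 to 916 in the libraries of the other 3 groups. Whether the ER genes differed more than the members was not tested.

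The promoters of these groups held different motifs. The ER stress element (CCAAT, any 9 bases, CCACG) was searched on both strands. It occurred in 7 of 16 genes of the ER list with a window and in 0 of 7 such members. Of all 27025 genes with a window, 0.137% held it. The 3-unit heat shock element occurred in 0 of the 16 ER list genes. Of 64 tested genes with the 3-unit heat shock element, 9 fell at 12 months (14.1%) and 4 rose. Without the members 7 of 60 fell (11.7%), where 7.71% of all genes tested fell and 11.2% rose. The members with the element included both the largest 12-month difference (Chordc1) and both uncalled mitochondrial genes.

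**Figure D4:**
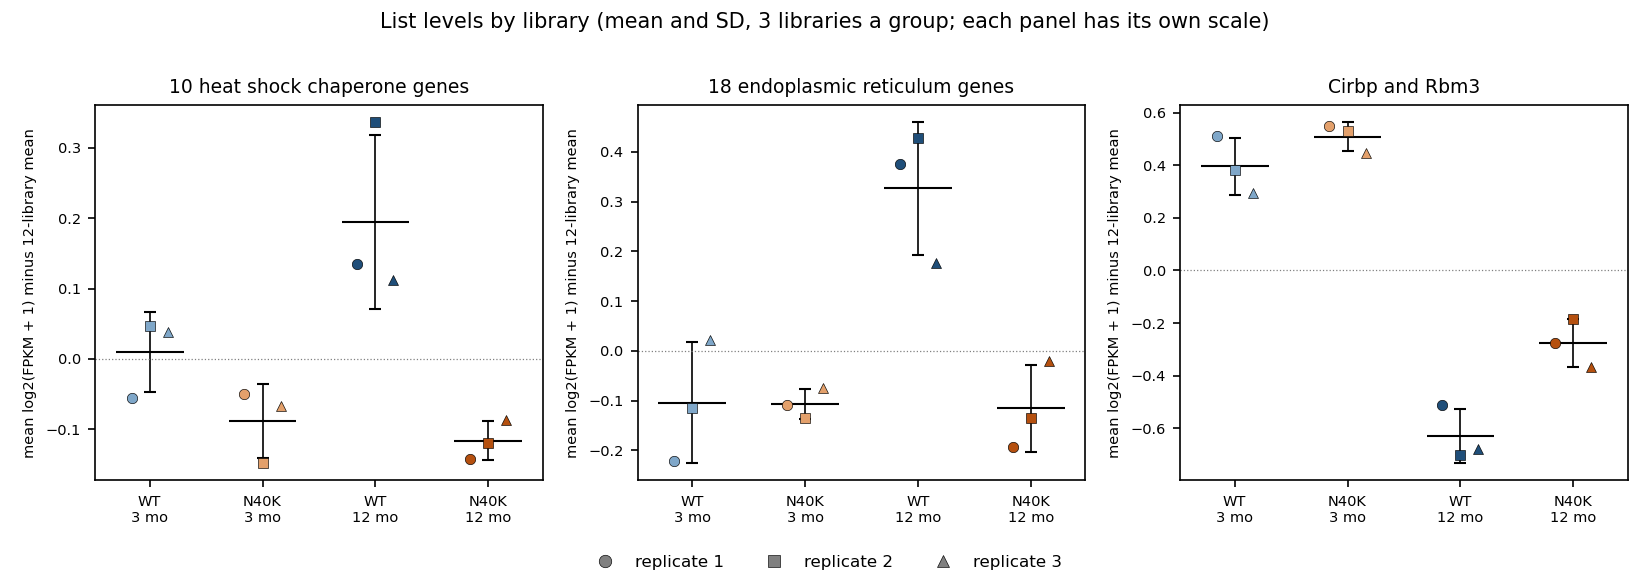
Level of the members, the ER list and a pair of cold-inducible genes in every library (vertical axes, each with its own scale), as the mean over its genes of log2(FPKM + 1) less the average of that gene in all 12 libraries, by group on the horizontal axes. Long bars are group means and whiskers are SD. The member level lies at 0.11 to 0.34 in 12-month wild-type libraries and at -0.14 to -0.086 in 12-month transgenic ones.

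A pair of cold-inducible RNA-binding protein genes, Cirbp and Rbm3, whose RNA is known to rise when cells are cooled, went the other way at 12 months. Rbm3 measured 16.6, 14.4 and 15.5 FPKM in wild-type and 19.3, 20.3 and 18.6 FPKM in transgenic libraries, a difference of 0.31 ± 0.05 (SE, adjusted p = 0.00352). Cirbp measured 42.8, 37.6 and 35.9 FPKM against 51.6, 55.9 and 47.2 FPKM, a difference of 0.40 ± 0.09 (adjusted p = 0.0118), which missed the threshold without transgenic replicate 2 (adjusted p = 0.0537). Neither was called at 3 months, with Rbm3 at 0.031 ± 0.055 (adjusted p = 0.777) and Cirbp at 0.19 ± 0.09 (adjusted p = 0.213). Both fell with age in wild-type mice, Rbm3 by 1.22 ± 0.05 (adjusted p = 4.37e-07) and Cirbp by 0.83 ± 0.09 (adjusted p = 7.45e-05), and both also fell in transgenic mice, by 0.94 ± 0.05 and 0.62 ± 0.09. Their part in the chaperone differences was not tested.

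Cell type markers at 12 months moved with genotype in some lists. Of all genes tested, 7.71% fell and 11.2% rose. Pyramidal neuron markers summed to 1288 to 1317 FPKM in wild-type and 1083 to 1187 FPKM in transgenic libraries, with 2 of 8 lower and 1 higher. The level per gene of these pyramidal markers overlapped, at -0.038 to 0.031 in wild-type and -0.071 to 0.054 in transgenic libraries. Endothelial markers summed to 74.3 to 75.2 against 92.9 to 93.3 FPKM, with 4 of 8 higher. Choroid plexus markers summed to 1081 to 2209 FPKM in wild-type libraries and to 29.95, 233.8 and 3076 FPKM in transgenic ones. Of these markers 0 of 8 were called in limma (0 at an unadjusted p under 0.05). Oligodendrocyte markers summed to 1586 to 1725 against 1424 to 1519 FPKM, with 0 of 8 called in limma (1 lower at an unadjusted p under 0.05), while sums of astrocyte, microglia and interneuron markers overlapped. Dentate granule neuron markers summed to 99.5 to 105 against 92.2 to 99.0 FPKM, with 0 of 7 called in limma (2 lower at an unadjusted p under 0.05). Their level per gene overlapped, at -0.11 to 0.14 against -0.046 to 0.053. The levels per gene of endothelial and of oligodendrocyte markers did not overlap between the genotypes. Beyond the fits with Ttr above, the part of these markers in the chaperone differences was not tested.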

How the data were processed

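Poly-A RNA of 12 hippocampus libraries (TruSeq, paired reads of 100 bp, per the labels) was deposited by the authors as 1 table of FPKM values. CASAVA, STAR and BWA and the mm9 build are named, without roles, per the submitters' processing notes; for counting tool, annotation and strand the sources used here give nothing. All columns matched labels. The highest share of identical values between 2 libraries was 0.0159%. Depth was estimated from low FPKM values of 1110 receptor genes, whose values were whole reads (tolerance 0.02) in 54.8% to 70.8% of cases per library. This was too few for a count test.

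The test scale was log2(FPKM + 1). The 13945 genes that reached 1 FPKM in 3 or more of the 12 libraries were fitted with limma 3.58.1 (R 4.3.3), 1 mean per group, eBayes with a trend, two-sided, Benjamini-Hochberg over all genes tested, threshold 0.05. Fold changes on this scale understate the change of low genes. Named genes were the members, Snrnp70, up to 3 genes per chaperone list with the smallest 12-month p, and the 8 genes most like the member mean; other called list genes (Ttc4, Cdc37l1, Dnajb2) and Hsf1 were chosen after their values were seen. The members and lists were chosen with earlier results of these data known. The procedure was tested on simulated data. GENCODE M21 gave names, transcript lengths, GC content and shared 100-base stretches, and RefSeq (GRCm38.p6) gave promoters; neither is the authors' build, so no coordinate was carried over. Tables and plots were made in Python 3.11.15 (pandas 2.3.3; numpy 2.4.6; plots, matplotlib 3.10.9).

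Alternatives were median-ratio scaling, quantile normalization, a stricter filter (mean of 5 FPKM or more), none, smaller pseudocounts (0.1 and 0.5), robust eBayes, Xist or Ttr as a covariate, the replicate number as a block, only the 2 groups compared, and each library left out. Removal of each library's transcript length or GC trend, and list counts without wild-type replicate 2 of 12 months, were added after seeing the data. Same-numbered wild-type libraries of the 2 ages deviated together (r 0.25, 0.26 and 0.34), although the labels state no pairing, and with the block 5 members were called with age in wild type, as without it.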

Additional observations from a re-analysis of the deposited data

How the results depend on the processing

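Under the alternatives, 1109 member values kept direction and side of the threshold, 79 lost a call, 17 gained one and 35 changed sign. Sign changes outside the fits that left out a library were, for genotype at 3 months, Hsph1 under median-ratio scaling (-0.034), quantile normalization (-0.0043), Ttr (-0.0028), length trend (-0.0098) and GC trend (-0.0048), and Hsp90ab1 under quantile normalization (0.028). For age in wild type they were Hspe1 under median-ratio scaling (0.051), quantile normalization (0.060), Xist (0.00072) and length trend (0.12), Hspd1 under quantile normalization (0.0079) and length trend (0.041), and Dnajb1 with Ttr (-0.018). For age in transgenic mice they were Hspa8 under median-ratio scaling (0.065), quantile normalization (0.16), Xist (0.0042) and length trend (0.11), Hsp90ab1 under median-ratio scaling (0.023), quantile normalization (0.11), length trend (0.10) and GC trend (0.013), Dnaja1 (-0.0082) and Hspd1 (0.011) with the length trend removed. The difference between effects of Hspa4l became -0.044 with the length trend removed. The cause of these changes was not tested. With each library left out in turn, values that crossed 0 ranged from -0.054 to 0.012 for Dnaja1, -0.079 to 0.0070 for Hspd1 and -0.032 to 0.027 for Hsph1 (genotype at 3 months), -0.067 to 0.060 for Dnajb1, -0.010 to 0.046 for Hsp90ab1 and -0.17 to 0.063 for Hspe1 (age in wild type), -0.088 to 0.0020 for Hspa8 (age in transgenic mice) and -0.16 to 0.020 for Hsp90aa1 (difference between effects).

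Members called were 3 with age in wild type without a filter, 3 for that contrast and 3 for genotype at 12 months with only the 2 groups compared, and 1 for the difference between effects with the GC trend removed. Of all genes, 1499 were called at 12 months with only the 2 groups compared, and 0 for the difference between effects with Xist or with the replicate block. With each library left out, member counts were 1 to 4 for genotype at 3 months, 2 to 8 at 12 months, 3 to 5 with age in wild type, 3 to 6 with age in transgenic mice and 0 to 0 for the difference between effects. Counts over all genes were 797 to 2226, 1356 to 2607, 4676 to 5741, 6039 to 7826 and 0 to 162 in that order. The replicate block called 2 members at 3 months, 5 at 12 months, 5 with age in each genotype and 0 for the difference between effects. Same-numbered libraries did not deviate together in 3 of the 4 pairs of groups (r from -0.46 to 0.20), with 0 of 6 libraries closest to their own number at 3 months, 3 of 6 at 12 months and 0 of 6 for age in transgenic mice. With the longest annotated coding transcript taken as length, every member had an estimated 1663 or more fragments in each library.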

Other observations

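Genes that followed the members most closely over the 12 libraries, by Pearson r of log2(FPKM + 1) with the member mean among 9393 genes, were Ubqln1 (r = 0.97), which encodes a proteasome shuttle factor, the ER J-domain gene Dnajb9 (0.96) and Ahsa1 (0.96). Snx1, Ptp4a2, Ttc1, Fam20b and Gskip followed, at 0.95, 0.95, 0.95, 0.94 and 0.94. The libraries share the same 4 groups, and this is a description only. At 12 months Ubqln1 fell by 0.16 ± 0.04 (log2, SE; adjusted p = 0.0132), a call lost without transgenic replicate 1 or 2 of that age, and Dnajb9 by 0.27 ± 0.07 (adjusted p = 0.0181), a call lost without wild-type replicate 2 or transgenic replicate 1 or 2 of 12 months.

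The genes next to Chordc1 were looked at after its values were seen. Of the 10 nearest tested genes, 5 on each side, 0 fell at either age in limma (0 at 3 months and 1 at 12 months at an unadjusted p under 0.05). Over all genes tested 3.49% fell at 3 months and 7.71% at 12 months, so 0 of 10 lies near the background. At 12 months the values of these 10 genes ran from -0.11 for Zfp426 (adjusted p = 0.116) to 0.53 for Scarna9 (adjusted p = 0.404). Fat3 (0.46, adjusted p = 0.00259) and Zfp317 (0.24, adjusted p = 0.00893) rose, where 11.2% of all genes tested did.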
